A study of Mus musculus with 63 samples.

Results

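The absorptive enterocyte takes up lipid, sugar, peptide and vitamin A from the gut lumen, and 10 genes of that work were followed through the tumours of this series. They were taken by symbol from a table of 24766 genes, in which each had a single entry, and all 10 passed the filter on low values. *Fabp1* and *Fabp2* encode the fatty acid binding proteins of the enterocyte cytosol, and *Rbp2* encodes the cellular retinol binding protein of the small intestine. *Apob* is the structural apolipoprotein of the chylomicron, *Mttp* encodes the large subunit of the microsomal triglyceride transfer protein that loads lipid onto it, and *Apoa1* and *Apoa4* encode apolipoproteins secreted with it. *Alpi* encodes intestinal alkaline phosphatase, *Sis* sucrase-isomaltase and *Lct* lactase, which are enzymes of the apical membrane.

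Enterocytes arise from crypt progenitors and mature as they move up the villus, and the genes of absorption and of the brush border, the microvillus layer of the apical surface, are markers of that maturation. Absorptive genes also differ along the length of the small intestine, with iron uptake and lactase typical of the proximal bowel and bile acid uptake of the ileum. In intestinal adenomas, which form after loss of *Apc*, a negative regulator of Wnt signalling, this differentiation is known to be incomplete.

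The tumours came from small intestine of 2 mice, 1 female and 1 male, which carried Villin-creERT2, *Apc* fl/+ and the R26R-Confetti reporter on a C57BL/6 background. At 8 weeks of age or older both mice received tamoxifen (4 mg, intraperitoneally) and, 10 days later, the mutagen ENU (200 mg/kg). The Cre recombinase was driven by the Villin promoter in intestinal epithelium, and the Confetti reporter gave cell lineages different colours. All groups shared these alleles and agents, and no tissue from untreated animals or normal mucosa was analysed here. From each mouse, 10 tumours holding clones of different colour were divided, the larger clone being called major and the smaller one minor, which gave 20 clones of each class. Another 23 tumours, 10 of them female and 13 male, were kept whole and are called undivided. Each mouse stood for its sex, so the sexes could not be told apart from the animals, and the tumours of a mouse were replicates within that animal. Source names SI10, SI20 and SI30, which the labels leave unexplained, were used as segment labels.

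Poly(A)-selected RNA was sequenced from the 63 libraries, and values were gene counts scaled between libraries (normalised counts). Their sum per library ran from 26140227 to 45909885, and the 10 genes together took 0.559 to 5.85% of it. The ribosomal RNA gene *Rn18s* took 0.555 to 13.1% of the counts of a major clone (median 1.24%), 1.03 to 15.6% of those of a minor clone (median 6.19%) and 0.561 to 19.3% of those of an undivided tumour (median 3.12%). Its share was higher in the minor clone for 15 of 20 tumours. Correlations between libraries over genes ran from 0.844 to 0.975. In bulk RNA, fewer enterocytes and less RNA per enterocyte cannot be told apart.

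The gene with the clearest clone difference was *Sis* (described below with its values). Between segments the smallest p in limma belonged to *Alpi* in undivided and to *Lct* in divided tumours, and none of the 10 genes passed. The 200 bases before the start sites of *Sis*, *Alpi* and *Lct* are shown, with those of *Fabp1* for comparison. The windows lie upstream of the annotated gene and were read 5′ to 3′ on the gene's strand from GRCm39 (Gencode M39 starts). They are chr3:72875197-72875396 (minus strand) for *Sis*, chr1:128256056-128256255 (minus strand) for *Lct*, chr1:87029329-87029528 (minus strand) for *Alpi* and chr6:71176609-71176808 (plus strand) for *Fabp1*. Capitals mark exact matches, on either strand, to core letters of 5 elements (HNF4, GATA, CDX, HNF1 and the TATA box), which are spelt out below.
*Sis*: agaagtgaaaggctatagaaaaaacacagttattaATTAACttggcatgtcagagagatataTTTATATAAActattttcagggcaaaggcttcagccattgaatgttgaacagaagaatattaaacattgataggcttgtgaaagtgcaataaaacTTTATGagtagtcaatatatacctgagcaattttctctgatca
*Lct*: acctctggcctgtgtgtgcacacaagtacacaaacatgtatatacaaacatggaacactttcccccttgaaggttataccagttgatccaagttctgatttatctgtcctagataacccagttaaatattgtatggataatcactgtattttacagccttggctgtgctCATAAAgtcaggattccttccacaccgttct
*Alpi*: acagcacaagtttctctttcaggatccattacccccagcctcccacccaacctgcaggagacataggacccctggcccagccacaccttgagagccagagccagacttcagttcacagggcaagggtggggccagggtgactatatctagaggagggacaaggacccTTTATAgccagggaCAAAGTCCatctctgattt
*Fabp1*: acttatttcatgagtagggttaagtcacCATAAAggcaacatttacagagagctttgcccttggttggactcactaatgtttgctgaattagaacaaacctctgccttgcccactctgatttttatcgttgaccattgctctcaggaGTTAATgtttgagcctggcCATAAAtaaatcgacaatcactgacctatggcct
The CDX letters (TTTATG) were found in the windows of *Sis*, *Lct* and *Fabp1*, and in 7.81% of 21770 protein-coding gene windows of the same length. In *Sis* the match lay 43 to 38 bases before the start, in *Lct* 31 to 26 bases and in *Fabp1* 34 to 29 and 172 to 167 bases before it. The HNF1 letters (GTTAAT) were in *Fabp1*, *Sis* and *Apoa4*, and in 4.81% of all windows. The HNF4 letters (CAAAGTCC) were in *Alpi* and *Rbp2*, and in 0.992% of all windows. The TATA box letters (TATAAA) were in *Alpi*, *Sis*, *Apob* and *Rbp2*, with a pair of overlapping matches in *Sis*, and in 9.57% of all windows. They lay 33 to 28 bases before the start in *Alpi*, 31 to 26 in *Apob* and 24 to 19 in *Rbp2*. In *Sis* they lay farther off, at 138 to 133 and 134 to 129 bases. The GATA letters (GATAAG) were in *Apob*, and in 5.02% of all windows. None of the letters was in the windows of *Fabp2*, *Apoa1* or *Mttp*. These are matches of letters, and binding was not measured.

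The genes lie on 5 chromosomes of GRCm39. *Apoa1* (chr9:46139878-46142212) and *Apoa4* (chr9:46151994-46154757) are close together on the plus strand, with *Apoc3* (chr9:46142527-46146934, minus strand) between them. *Fabp1* (chr6:71176809-71182016) and *Apob* (chr12:8027648-8066835) are also on the plus strand. *Alpi* (chr1:87025724-87029328, minus strand) has a close paralogue, *Akp3* (chr1:87052695-87055634), on the same chromosome, and reads shared by that pair could have been split between them in the authors' estimates. The values of *Alpi* are uncertain to that extent.

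Per kilobase of canonical transcript, the mean normalised count over the 63 libraries was highest for *Apoa4* (201000) and *Apoa1* (125700), the secreted apolipoproteins. *Rbp2* (91920) and *Fabp1* (65350) came next, followed by *Fabp2* (25400) and *Alpi* (23750), whose ranges overlapped. The order of that pair turned with the group, as the median was 27030 for *Fabp2* and 20180 for *Alpi* per kilobase in major clones and 27550 and 29560 in undivided tumours. *Mttp* stood at 9448, *Apob* at 4594 and *Sis* at 4369 per kilobase. *Lct* was lowest at 905.5 per kilobase, and its range over the libraries was the widest, from 3.61 to 28790 normalised counts. The ranges of neighbours in this order overlapped, and on the normalised count scale *Mttp* varied least (highest over lowest library 10.1) and *Lct* most (7983).

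**Figure D1:**
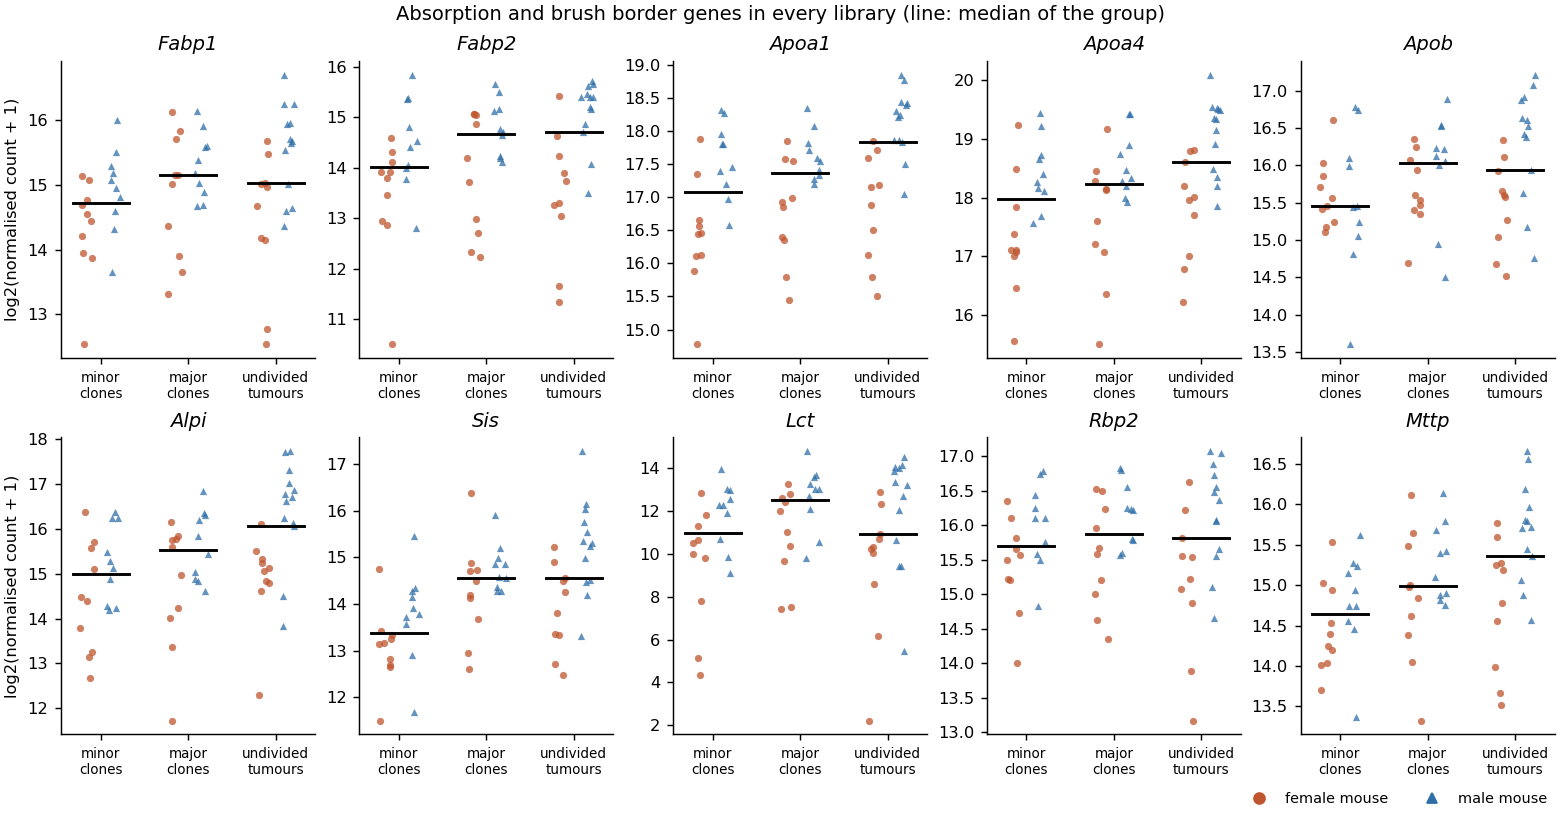
Each point is 1 library and the vertical axis gives log2(normalised count + 1) of the named gene in 20 minor clones, 20 major clones and 23 undivided tumours, with the median of each group as a line. The groups overlap for all 10 genes, the minor clone median is the lowest of the 3 for every gene except *Lct*, and points of the male mouse lie mostly above those of the female mouse.

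The clones of each divided tumour were compared to ask whether the larger clone expressed more of the absorptive genes than its partner. All 10 genes had a positive mean difference (major minus minor), and *Sis* passed the test. Its values ran from 6256 over a median of 24250 to 85450 normalised counts in major clones, and from 2884 over 10670 to 45180 in minor clones. The ranges overlapped, with 2 of 20 major clones above the highest minor clone, and *Sis* was higher in the major clone in 16 of 20 tumours, 7 in the female and 9 in the male mouse. On the log2(normalised count + 1) scale, where 1 is a factor of 2, *Sis* was higher in the major clone by 1.10 (SE 0.26, 95% interval 0.56 to 1.65, adjusted p = 0.0439, limma with Benjamini-Hochberg adjustment over 16428 genes). Over all genes tested 1.14% passed, against 1 of 10 here.

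The call on *Sis* was close to the threshold. Leaving out each tumour in turn gave differences of 0.99 to 1.22 with adjusted p from 0.0236 to 0.0857, and the call was lost in 14 of 20 of these fits. Without tumour 22 of the female mouse, whose clones carry different segment labels, it was 0.99 with an adjusted p of 0.0801.

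Among the other brush border enzymes, *Lct* ran from 173 over 5916 to 28790 normalised counts in major clones and from 19.3 over 2097 to 16020 in minor clones. The lowest value of each class came from tumour 20 of the female mouse, and the highest came from the male mouse. The mean difference of *Lct* was 1.14 (SE 0.37, 95% interval 0.38 to 1.902, adjusted p = 0.0815), with the major clone higher in 13 of 20 tumours. *Alpi* had a difference of 0.35 (SE 0.13, adjusted p = 0.131) and was higher in the major clone in 14 of 20 tumours, with medians of 47170 and 32820 normalised counts.

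Of the genes of chylomicron assembly, *Mttp* came closest to the threshold. It ran from 10240 over 32570 to 72440 normalised counts in major clones and from 10540 over 25690 to 50560 in minor clones. The lowest values nearly coincided, while 5 major clones lay above the highest minor clone. The difference of *Mttp* was 0.43 (SE 0.14, 95% interval 0.15 to 0.72, adjusted p = 0.0810), with the major clone higher in 15 of 20 tumours. *Apob*, the particle's backbone, differed by 0.26 (SE 0.14, adjusted p = 0.257), with medians of 66960 and 45140. For the apolipoproteins *Apoa1* and *Apoa4* both differences were 0.20 (SE 0.17 and 0.18, adjusted p = 0.505 and 0.537), and the major clone was higher in 11 and 12 of 20 tumours.

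*Fabp1*, the fatty acid binding protein shared with liver, had medians of 36640 in major and 27130 in minor clones and differed by 0.44 (SE 0.17, 95% interval 0.09 to 0.79, adjusted p = 0.130). *Fabp2*, the intestinal form, had medians of 26080 and 16620 and differed by 0.35 (SE 0.21, 95% interval -0.10 to 0.79, adjusted p = 0.347). *Rbp2*, which carries retinol, showed the smallest difference of the 10, 0.15 (SE 0.14, adjusted p = 0.542). The intervals of *Fabp2* and *Rbp2* included 0, and the major clone was higher in 13 of 20 tumours for each of these 3 genes.

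**Figure D2:**
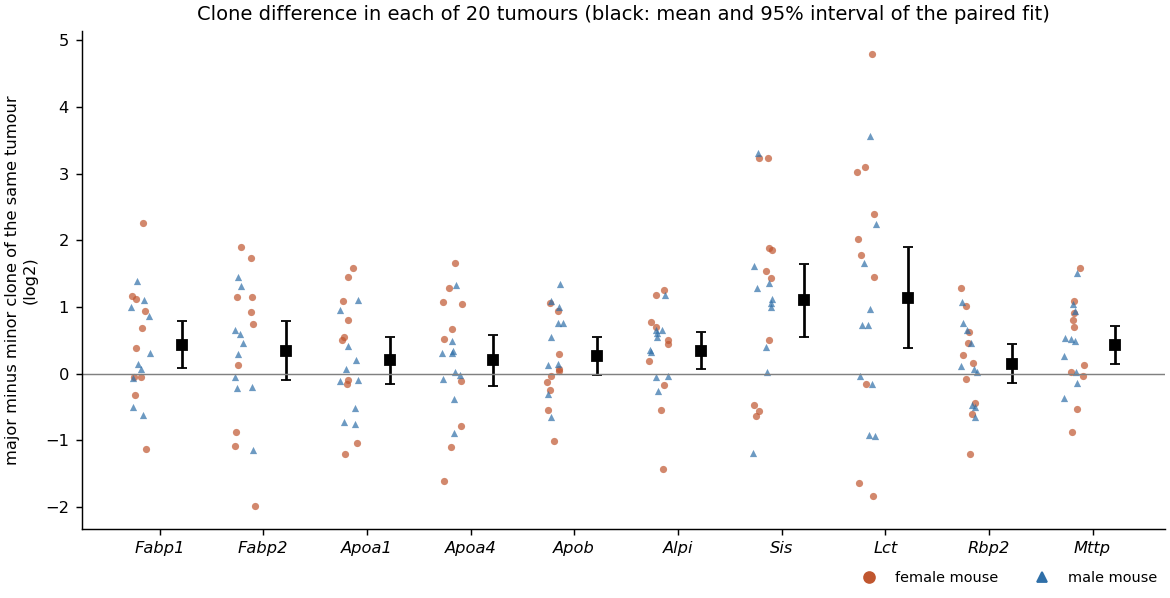
Each point is 1 of 20 tumours and the vertical axis gives the major minus minor difference of log2(normalised count + 1) for the named gene, with the mean and 95% interval of the paired fit as a black square and bar. All 10 means lie above 0, those of *Sis* (1.10) and *Lct* (1.14) are the highest, and each gene has some tumours below 0.

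Within a tumour the 10 genes often shared the sign of their difference. The 10 values of a clone share its library, its RNA and its scaling, and whether other genes did the same was not tested. In 7 of 20 tumours all 10 genes were higher in the major clone, while all 10 were higher in the minor clone in 2 tumours (female, numbers 23 and 29). The mean difference over the 10 genes was -0.80 in tumour 23 and -1.08 in tumour 29, whose clones carry the SI30 label. The highest mean was 1.89, in tumour 22 of the female mouse, whose major clone carries the SI20 and minor clone the SI10 label. That tumour also gave the highest differences of *Fabp1*, *Fabp2*, *Lct* and *Mttp*. The mean lay above 0 in 15 of 20 tumours.

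Other genes of the brush border and of absorption were described by their counts in the same fit, where the median difference of all genes was 0.01 and 1.14% of them passed. Of 16 structural genes of the microvillus, 15 had positive differences (median 0.30) and 1 passed, *Ezr*, which links actin to the membrane (0.33, adjusted p = 0.0352). All 17 further brush border enzymes had positive differences (median 0.63) and 1 passed, *Enpep*, the glutamyl aminopeptidase (0.95, adjusted p = 0.0444). All 19 nutrient transporters had positive differences (median 0.65), and the iron carrier *Slc11a2* (1.06, adjusted p = 0.0439) and the amino acid carrier *Slc6a20a* (1.16, adjusted p = 0.0465) passed. Of 17 chylomicron genes 15 were positive (median 0.16) and none passed, the smallest p belonging to the acyltransferases *Gpat3* (0.40, adjusted p = 0.0661) and *Dgat1* (0.39, adjusted p = 0.0939). Of 16 enterocyte transcription factors 14 were positive (median 0.24) and *Gata6* passed (0.29, adjusted p = 0.00573).

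Markers of other cells also differed between the clones. Of 6 enteroendocrine markers 3 were higher in major clones (median of all 6 0.74), namely *Chgb* (0.89, adjusted p = 0.0207), *Tph1* (0.72, adjusted p = 0.0334) and *Neurog3* (0.92, adjusted p = 0.0438). The summed level of the 6 was 1663 to 6575 normalised counts in major and 665 to 5359 in minor clones, with none at 0. None of 8 stromal markers passed (7 positive, median 0.62; summed level 1808 to 26120 in major and 1754 to 24590 in minor clones), and none of 8 immune markers passed (8 positive, median 0.42; 2389 to 17420 and 812 to 15940). Their part in the result was not tested. With the *Rn18s* share of each library added to the fit, a choice made after the data were seen, the *Sis* difference was 1.48 with an adjusted p of 0.313. In that fit all 10 genes stayed positive, and 1 of all genes tested passed.

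Whether the clone difference of a gene differed between the mice or between SI10 and SI20 tumours was tested with interaction terms in limma. The share of all genes passing was 0% in each, with 1228 of 16428 genes at an unadjusted p under 0.05 for the mice and 672 of 16436 for the segments. None of the 10 genes was among them. The mean difference of *Sis* was 1.21 in the female and 1.002 in the male mouse, and that of *Lct* 1.495 and 0.79. The median SE of these interaction terms over the 10 genes was 0.35 and 0.34, so that differences of similar size to those of *Fabp1* or *Mttp* could not be resolved.

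Undivided tumours were next set against each clone class, in fits with the mouse as a covariate. Both comparisons share the undivided tumours, and no tumour number links an undivided tumour with a divided one. *Sis* ran from 5718 over 24000 to 158900 normalised counts in undivided tumours, and 5 of 23 lay above the highest minor clone. Against minor clones *Sis* was higher in undivided tumours by 1.17 (SE 0.28, 95% interval 0.61 to 1.73, adjusted p = 0.0169), and against major clones the difference was 0.07 (SE 0.27, 95% interval -0.48 to 0.62). The undivided median of *Sis* thus lay next to that of the major clones (24250).

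Of the 10 genes, 1 passed against minor clones, where 3.7% of 16491 genes passed. Against major clones 0 of 10 passed in limma (0 at an unadjusted p under 0.05), where 0.0121% of 16510 genes passed. *Mttp* had a median of 42240 in undivided tumours and differed from minor clones by 0.60 (SE 0.20, adjusted p = 0.0716) and from major clones by 0.16 (SE 0.20). *Alpi* had a median of 69080, with 8 of 23 undivided tumours above the highest minor clone, and differed by 0.84 from minor clones (SE 0.32, adjusted p = 0.123) and by 0.49 from major clones (SE 0.33). *Apoa1* differed by 0.49 and 0.29, and *Apoa4* by 0.57 and 0.36, with SE of 0.19 to 0.24.

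*Lct* stood apart from the other genes. It ran from 3.61 over 1936 to 23570 normalised counts in undivided tumours, a range that enclosed the whole range of the minor clones. Its difference was 0.12 from minor clones (SE 0.76) and -1.004 from major clones (SE 0.72, 95% interval -2.45 to 0.44). For *Rbp2* the differences were -0.02 (SE 0.23) and -0.17. *Fabp1* differed by 0.39 from minor clones (SE 0.24) and by -0.04 from major clones, and *Fabp2* by 0.32 (SE 0.29) and -0.03. The undivided medians of *Fabp1* (33610), *Fabp2* (26590), *Rbp2* (57580) and *Apob* (62890) all lay within the ranges of both clone classes.

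Neighbouring genes were described in the same fit, in which 3.7% of all genes passed. Against minor clones 5 of 16 structural genes were higher, with the smallest p for the microvillus link protein *Ush1c* (0.54, adjusted p = 0.00987), and 4 of 17 enzymes, with *Treh*, the trehalase (1.07, adjusted p = 0.0206), and *Tmprss15*, the enteropeptidase (2.76, adjusted p = 0.0248). Of 19 transporters 6 were higher, with the sugar carriers *Slc5a1* (1.20, adjusted p = 0.0107) and *Slc2a2* (1.49, adjusted p = 0.0107) first. Of 17 chylomicron genes 3 were higher, including *Apoc3*, which lies near *Apoa1* and *Apoa4* (1.04, adjusted p = 0.0366), and *Hnf4g* (0.71, adjusted p = 0.0402) was 1 of 2 transcription factors among 16. None of these lists held a gene that passed against major clones. Among markers of other cells, 4 of 6 enteroendocrine markers were higher and the endothelial *Cdh5* was lower (-1.12, adjusted p = 0.0473), and their part in the result was not tested. *Cdh5* need not stand for endothelial cells. Between clones of a tumour its difference (-0.54) had the opposite sign to those of *Pecam1*, *Kdr*, *Plvap* and *Lyve1* (0.14 to 0.48).

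Position along the bowel was examined by comparing SI20 with SI10 tumours. In undivided tumours (11 SI20, 12 SI10) 0 of 10 genes passed in limma, where 0.17% of 16511 genes passed. The smallest p of the 10 belonged to *Alpi*. In the male mouse *Alpi* ran from 101300 over 133600 to 219000 normalised counts in 7 SI10 tumours and from 14580 over 70560 to 112900 in 6 SI20 tumours. In the female mouse the 5 SI10 tumours held 29100, 34450, 38590, 46760 and 70620, and the 5 SI20 tumours held 5025, 24920, 28270, 36010 and 40960. In both mice the SI10 values were mostly the higher, with overlap, as 5 of 7 male and 2 of 5 female SI10 tumours lay above every SI20 tumour of their mouse. The SI20 minus SI10 difference of *Alpi* was -1.27 (SE 0.35, 95% interval -1.99 to -0.56, adjusted p = 0.195).

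*Lct* leaned the other way. Undivided SI10 tumours ran from 3.61 over 1411 to 17040 normalised counts and SI20 tumours from 70.8 over 6687 to 23570. In the male mouse 7 SI10 tumours ran from 43.1 over 1608 to 17040 and 6 SI20 tumours from 6687 over 13600 to 23570, with 2 SI20 tumours above every SI10 tumour. In the female mouse the 5 SI10 tumours held 3.61, 388, 1215, 1936 and 7562 and the 5 SI20 tumours 70.8, 1062, 1265, 1685 and 5096. The SI20 values were mostly the higher in the male mouse, while the female medians nearly coincided, and whether the mice differed in this was not tested. The difference of *Lct* was 2.08 (SE 1.06, adjusted p = 0.667) in undivided tumours, 2.96 within the male and 0.94 within the female mouse. In the 17 divided tumours whose clones share an SI10 or SI20 label, where clones were averaged within each tumour, it was 2.61 (SE 0.67, 95% interval 1.21 to 4.02, adjusted p = 0.140). There, too, 0 of 10 genes passed in limma, and 0.28% of 16436 genes passed. *Fabp2* had the next smallest p of the 10 (1.04, SE 0.31, adjusted p = 0.193). *Fabp1* (0.61) and *Rbp2* (0.52) were also higher in SI20, and *Alpi* was again lower in SI20 (-0.90, SE 0.37, adjusted p = 0.303). The clones labelled SI30, from 2 tumours of the female mouse, held 3366 and 16620 (major) and 9054 and 9747 (minor) normalised counts of *Alpi*. They were not tested, because 1 mouse gave both tumours.

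**Figure D3:**
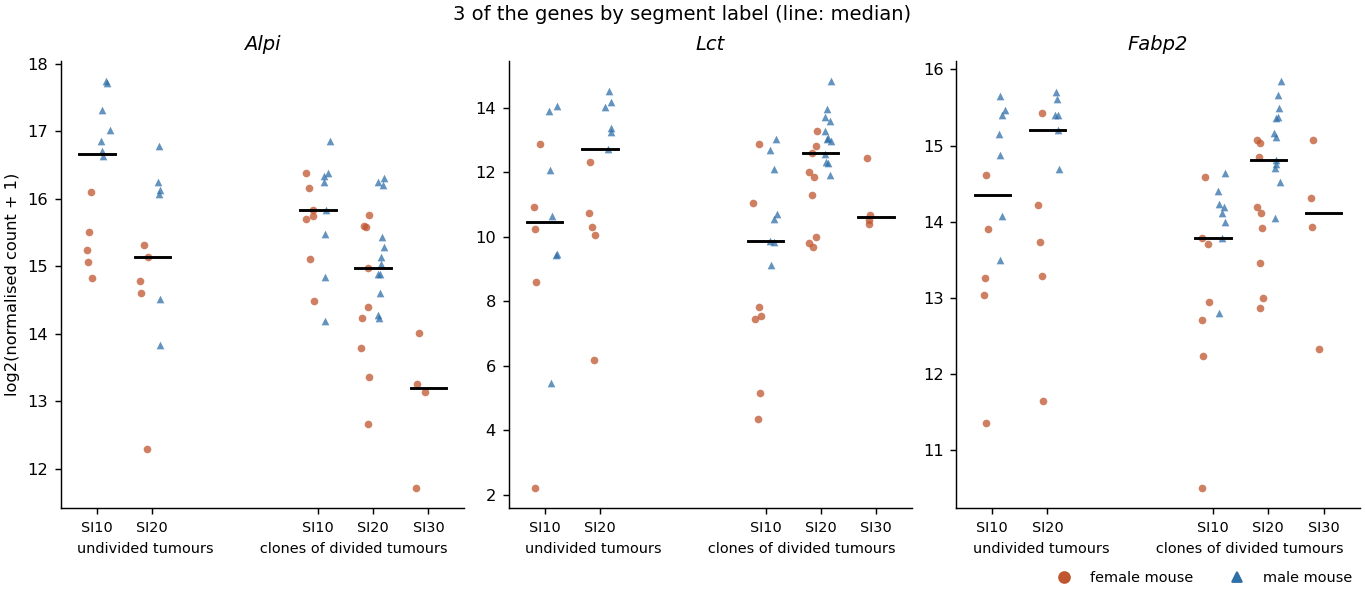
Each point is 1 library and the vertical axis gives log2(normalised count + 1) of *Alpi*, *Lct* and *Fabp2* by segment label, for undivided tumours and for clones of divided tumours, with medians as lines. *Alpi* has its higher medians in SI10 in both kinds of tumour, and *Lct* and *Fabp2* have theirs in SI20.

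The difference between segments was compared between undivided and divided tumours with an interaction term, which 0% of 16494 genes passed (267 at an unadjusted p under 0.05, none of the 10). None of the 10 had a positive term, so each estimated SI20 minus SI10 difference was lower in undivided than in divided tumours, but no term was resolved. As the 10 genes vary together over tumours, their shared sign is not 10 separate observations. The median term of the 10 was -0.47, against -0.004 for all genes, and its median SE over the 10 was 0.49. A list of 9 proximal genes, which holds *Lct* and *Rbp2*, had 3 genes lower in SI20 than in SI10 undivided tumours, the alkaline phosphatase *Akp3* (-5.34, SE 0.90, adjusted p = 0.0140), the duodenal iron reductase *Cybrd1* (-3.63, adjusted p = 0.0140) and the iron exporter *Slc40a1* (-2.96, adjusted p = 0.0214). Of 6 distal genes, *Osr2* was higher in SI20 (4.67, adjusted p = 0.0278). In divided tumours *Akp3* (-5.36, SE 0.94, adjusted p = 0.0192), *Slc40a1* (-2.18, adjusted p = 0.0423) and *Osr2* (4.64, adjusted p = 0.000397) passed with the same signs. *Akp3* and *Alpi*, which could share reads, thus had differences of the same sign. *Lct* and *Rbp2*, genes of the proximal list, had the opposite sign. *Rbp2* differed by 0.52 in divided tumours and by 0.19 to 0.54 in undivided tumours on leaving out each tumour. The ileal genes *Fabp6* and *Fgf15* had means below 10 over all libraries. The *Rn18s* share had a median of 7.15% in SI10 and 2.17% in SI20 undivided tumours, and its part in these differences was not tested.

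For these 10 genes, more calls among undivided tumours lay between the mice than between the segments. In the fit with segment, 8 of 10 genes were higher in the male mouse past the threshold and all 10 had positive differences (median 1.27, against -0.05 for all genes). Over all genes 19.1% passed and 10.3% passed as higher in the male mouse. With libraries scaled to the same sum of values the median of all genes was -0.25, 961 of 4357 calls were higher in the male mouse (1697 of 3154 before) and 7 of the 10 genes passed. These p-values compare 2 animals and carry no replication of sex or of mouse.

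Among the apolipoproteins, *Apoa1* ran from 46530 over 133600 to 236100 normalised counts in 10 tumours of the female mouse and from 136200 over 309100 to 474300 in 13 tumours of the male mouse. Of the male mouse's tumours 10 lay above its highest value in the female mouse, and the difference was 1.297 (SE 0.28, adjusted p = 0.00275). *Apoa4* differed by 1.25 (SE 0.33, adjusted p = 0.0111), *Apob* by 0.85 (SE 0.28, adjusted p = 0.0370) and *Mttp* by 0.91 (SE 0.29, adjusted p = 0.0281). All 4 genes of chylomicron assembly among the 10 therefore passed.

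*Fabp2* ran from 2614 over 11820 to 43970 in the female and from 11590 over 43150 to 53540 in the male mouse, the fatty acid binding protein with the larger difference (1.66, SE 0.37, adjusted p = 0.00381), while that of *Fabp1* was 1.12 (SE 0.36, adjusted p = 0.0300). Among the brush border enzymes *Alpi* differed by 1.49 (SE 0.35, adjusted p = 0.00494), with 10 of 13 male tumours above the highest female tumour, and *Sis* by 1.32 (SE 0.39, adjusted p = 0.0200). *Lct* had the widest spread and a difference of 2.72 (SE 1.06, adjusted p = 0.0739), and *Rbp2* a difference of 0.98 (SE 0.35, adjusted p = 0.0529). Neither of these passed.

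In divided tumours, with clones averaged, 3 of 10 genes passed as higher in the male mouse (13.1% of all genes passed in either direction). They were *Fabp2* (1.11, adjusted p = 0.0290), *Apoa1* (0.97, adjusted p = 0.0208) and *Lct* (2.26, adjusted p = 0.0353). In undivided tumours, leaving out each tumour in turn left 5 to 10 of the genes past the threshold. The count was 5 when tumour 1, 6 or 10 of the female mouse was left out. Within SI10 alone 2 of the 10 passed, where 830 of 16505 genes passed. Within SI20 alone 2 of the 10 passed, where 434 of 16371 genes passed. All 10 genes stayed higher in the male mouse under every setting. Endothelial markers went the other way, with 2 of 5 lower in the male mouse (summed level 3418 to 10170 in the female and 731 to 7434 in the male mouse), none of 8 stromal markers passed (median -0.52; 2820 to 16940 and 875 to 13420), and the *Rn18s* share had a median of 2.61% in the female and 7.24% in the male mouse. Their part in the difference was not tested. Over undivided and divided tumours of SI10 and SI20, *Cdh5* had the highest mean log2 value of the endothelial markers (11.4, with *Plvap* next at 9.15). It therefore weighed most in their sum.

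Across the 23 undivided tumours, with log2 values centred on mouse, the 10 genes were compared with each other. Of the 45 pairs 34 had a positive Pearson correlation with an adjusted permutation p under 0.05, and the median r was 0.685. The pair with the highest r was *Fabp1* and *Mttp* (r = 0.923, Spearman's rho = 0.896, 0.89 without the 2 tumours farthest from the median of *Fabp1*). *Fabp1* with *Rbp2* (r = 0.919) and *Apoa1* with *Apoa4*, which lies near it (r = 0.915), followed. Each point is 1 tumour, and the genes of a tumour share its library, its RNA and its scaling. The share of pairs passing among other genes was not computed, so the count does not set these genes apart.

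*Alpi* was the exception within the group. Its median r with the other 9 genes was 0.27, and its Pearson correlation passed with *Apoa1* (r = 0.571) and *Apoa4* (r = 0.642). By rank it passed with these and also with *Apob* (rho = 0.521, adjusted permutation p = 0.0234) and *Mttp* (rho = 0.483, adjusted permutation p = 0.029). With *Lct* its r was -0.305, the lowest of the 45 pairs, and with *Fabp2* it was 0.0141, whereas *Fabp2* and *Lct* had an r of 0.855. The r of each gene with the mean of the 10 ran from 0.409 for *Alpi* and 0.646 for *Lct* to 0.951 for *Fabp1* and 0.974 for *Mttp*, each of which enters that mean. In divided tumours the r of *Alpi* with the mean was 0.531.

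**Figure D4:**
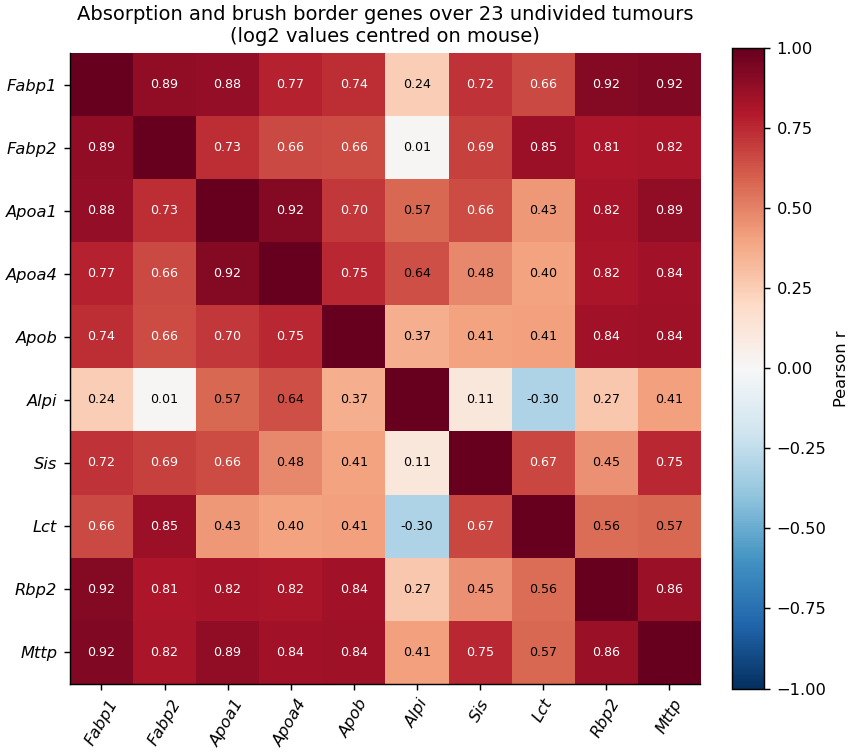
Each cell gives Pearson's r between log2(normalised count + 1) of a pair of genes over 23 undivided tumours, centred on mouse, with red for positive and blue for negative values. *Alpi* forms the pale row and column, with r from -0.305 with *Lct* to 0.642 with *Apoa4*, while *Fabp1*, *Rbp2* and *Mttp* correlate with one another at 0.864 to 0.923.

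Outside the 10 genes, those with the highest r to their mean over undivided tumours were *Acsl5* (0.959), an acyl-CoA synthetase of long-chain fatty acids, *Slc9a3r1* (0.946), a scaffold of the microvillus membrane, *P4hb* (0.946), a protein disulfide isomerase, *Creb3l3* (0.946), a membrane-bound transcription factor, and *Slc3a1* (0.939), a subunit of an amino acid transporter. In divided tumours, which did not choose them, their r was 0.883 to 0.94. The genes of a tumour share its library and its scaling, and no test was made.

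The clones of a tumour were last compared for likeness, as the correlation of major with minor clone over the 20 divided tumours, centred on mouse, with 10 genes adjusted together. *Alpi* had the highest value (r = 0.826, permutation p = 4e-05, adjusted p = 0.0004; rho = 0.872, permutation p = 1e-05, the smallest that 100000 permutations can give, adjusted p = 0.0001). It stayed at 0.833 without the 2 tumours farthest from the median minor clone, and it was 0.815 in the female and 0.869 in the male mouse. Clones of a tumour thus held like levels of *Alpi*. How large a share of all genes would pass the same test was not computed. *Lct* had an r of 0.629 (permutation p = 0.0082, adjusted p = 0.041) but a rho of 0.374 and an r of 0.203 without the 2 farthest tumours, and so rested on those tumours. *Sis* had an r of -0.149 (permutation p = 0.514), and no relation between the clones of a tumour was detected for this gene.

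The Pearson correlation of the other 7 genes did not pass, with r from 0.24 for *Apoa1* over 0.378 for *Fabp1* to 0.59 for *Apob* (adjusted p = 0.0509). By rank, *Mttp* passed (r = 0.42, adjusted permutation p = 0.127; rho = 0.60, adjusted permutation p = 0.0419), while *Lct* did not (adjusted permutation p of rho = 0.188). Since *Alpi* also leaned with segment, the values were centred on mouse and segment in 19 tumours whose clones share a label, a choice made after the data were seen. Within these strata r was 0.705 for *Alpi* (adjusted p = 0.0087), 0.709 for *Apob* (adjusted p = 0.0711) and -0.308 for *Sis* (adjusted p = 0.103).

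**Figure D5:**
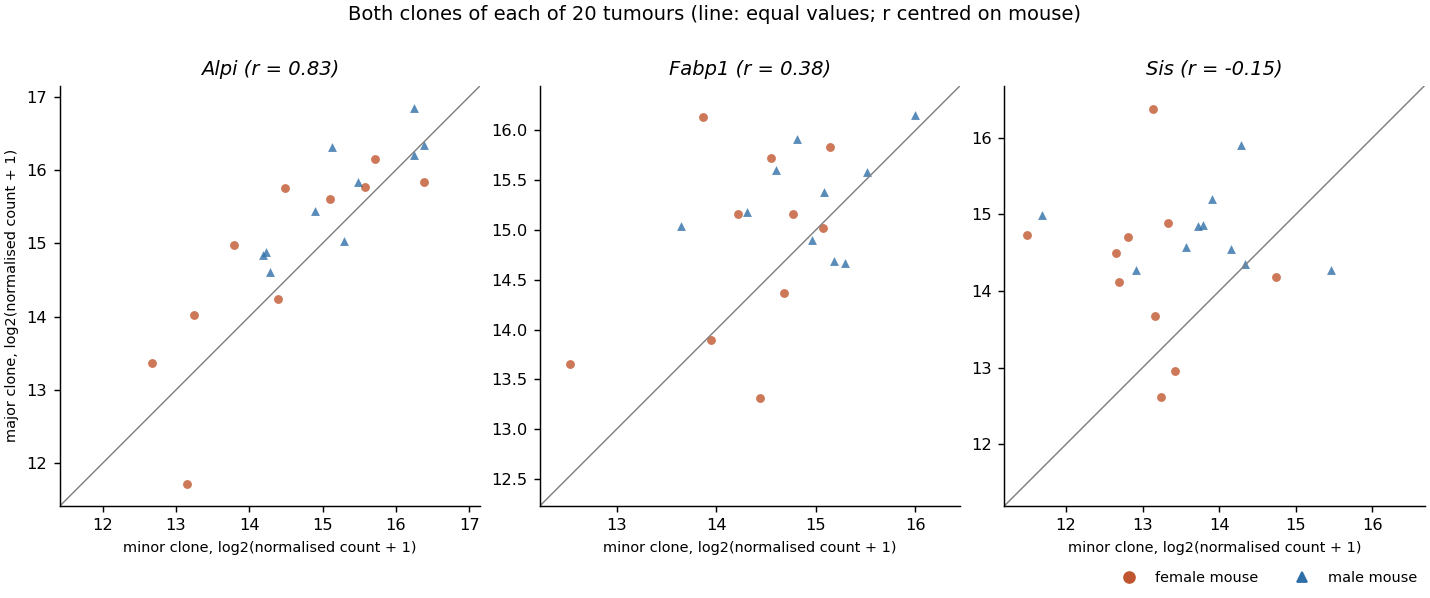
Each point is 1 of 20 divided tumours, with log2(normalised count + 1) of the minor clone on the horizontal and of the major clone on the vertical axis, and the line marks equal values. *Alpi* follows the line (r = 0.826 centred on mouse), *Fabp1* less so (r = 0.378), and *Sis* forms a cloud lying mostly above it (r = -0.149).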

How the data were processed

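Tumours were divided and RNA was extracted, checked (RINe above 8) and sequenced by the authors after poly(A) selection. Per the study's methods, reads were checked with FastQC (0.11.9), trimmed with Trimmomatic (0.39), aligned with STAR (2.7.7a) for quality control with Picard (2.27.3), and quantified with Salmon (1.9.0) against Gencode M30 (GRCm39). The deposited signal values are gene counts that the authors scaled between libraries with DESeq2. As 99.79% of them are not whole numbers, they were treated as a normalised signal and no count test was run. The raw read depth was not used here, so precision rests on the replicates.

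Major and minor classes were matched by sample title to the class list in the study's source data, no value of which was used. Values were tested as log2(value + 1), on genes with a mean of at least 10, in R (4.3.3) with limma (3.58.1, eBayes with trend) and Benjamini-Hochberg adjustment over all genes tested, at a threshold of 0.05. A fold change on this scale understates the change of genes at low values. Clones of a tumour were compared with the tumour as a block, as they come from the same tumour, and the correlation of their deviations from the class means was 0.0282 to 0.62 (median 0.265, over 0.1 in 17 of 20 pairs). Undivided tumours were compared with each clone class with mouse as covariate, and segments with mouse as covariate, on clone means in divided tumours. Correlations used 100000 permutations within Python (3.11.15, scipy 1.17.1). The test was checked on simulated data.

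The 10 genes and the lists of neighbouring genes and cell markers were chosen with earlier results of these data known. Named genes were the 10 genes, of each list those past the threshold in the comparison described (up to 6, or the 2 with the smallest p), and the 5 genes most correlated with the mean of the 10. Genes named outside this rule were chosen after their values were seen. Of 24766 gene IDs 24575 matched Gencode M39, whose canonical transcripts gave lengths and starts. Alternatives were other pseudocounts, filters, scalings, variance models, single mice, fits without the block, a signed-rank test and leaving out each tumour. The *Rn18s* share as covariate, the settings of the comparison of mice and the centring on mouse and segment were added after the data were seen.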

Additional observations from a re-analysis of the deposited data

How the results depend on the processing

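In the comparison of major with minor clones, 1 of 10 genes passed, and 0 passed with no filter on low values, eBayes without trend, the female mouse alone, the male mouse alone, a signed-rank test, or the *Rn18s* share as covariate (added after the data were seen). The adjusted p of *Sis* was then 0.0547, 0.0612, 0.659, 0.118, 0.0715 and 0.313, and over all settings it ran from 0.0337 to 0.659. Without the block that pairs the clones of a tumour, 0 of 10 genes passed (*Sis* 1.10, adjusted p = 0.113) and 1 gene passed in all, against 188 with it. No paired analysis was possible because undivided tumours share no tumour with the clones, for the comparisons that include them. Leaving out each tumour gave 0 to 3 of 10 genes. With tumour 29 of the female mouse left out *Alpi* (adjusted p = 0.0405) and *Mttp* (adjusted p = 0.0450) also passed, and genes passing in all ran from 25 without tumour 20 of the male mouse to 859 without tumour 19 of the female mouse. Over all genes, calls were 85 with no filter, 89 without trend, 0 in the female and 33 in the male mouse alone, 48 by signed-rank and 1 with the *Rn18s* share. Genes higher in major clones were 110 of 188 calls, 141 of 366 after quantile normalisation and 166 of 601 with libraries scaled to the same sum without *Rn18s*.

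Undivided tumours against minor clones gave 0 of 10 genes within the female mouse, 2 within the male mouse (*Sis* and *Mttp*, 0.87, adjusted p = 0.0461), against 1 overall. Leaving out each tumour gave 1 to 3, with 3 without undivided tumour 10 and 2 without undivided tumour 1 or 6 or minor clone 19 or 23, all of the female mouse. Calls over all genes were 610, 0 in the female mouse alone, 323 with mouse and segment as covariates and 1475 with the *Rn18s* share, and 274 (without minor clone 26 of the male mouse) to 959 (without minor clone 19 of the female mouse) on leaving out 1. Those higher in undivided tumours were 375 of 610, 238 of 649 with libraries scaled to the same sum and 263 of 891 with that sum taken without *Rn18s*, where the median of all genes stood at -0.11 and -0.12. Against major clones 0 of 10 passed in every setting, and leaving out each tumour gave 0 to 0, with 0 to 25 calls over all genes (25 without undivided tumour 7 of the male mouse) against 2. Signs turned within the female mouse for *Apob* (-0.14 against minor and -0.19 against major clones), *Sis* (-0.36) and *Mttp* (-0.084, both against major clones), and within the male mouse for *Fabp1* (0.25) and *Fabp2* (0.28), against major clones. Other differences near 0 also changed sign without passing, such as *Rbp2* within the male mouse (0.16 against minor and 0.0074 against major clones), *Lct* against minor clones with the *Rn18s* share (-0.04), and *Apob* (-0.03) and *Sis* (-0.01) against major clones after quantile normalisation.

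SI20 against SI10 gave 0 of 10 genes in undivided tumours in every setting run. In divided tumours leaving out each tumour gave 0 to 2, with *Fabp2* (adjusted p = 0.0415) and *Lct* (adjusted p = 0.0050) passing without tumour 23 of the female mouse. In divided tumours the sign turned for *Sis* (-0.042) and *Mttp* (-0.16) in the female mouse alone and for *Sis* in major clones alone (-0.012). Calls over all genes on leaving out 1 tumour were 5 (without undivided tumour 10 of the female or 8 of the male mouse) to 53 (without 6 of the female mouse) in undivided tumours, against 28, and 13 to 215 (without 19 and 23 of the female mouse) in divided tumours, against 46. The mouse difference gave 8 of 10 genes, where 3154 of 16511 genes passed, and 5 to 10 on leaving out each tumour. It gave 2 in SI10 alone, where 830 of 16505 genes passed, and 2 in SI20 alone, where 434 of 16371 passed. Likeness of clones passed for 2 genes, for 9 with values not centred on mouse, for 2 by rank (*Alpi*, and *Mttp* in place of *Lct*), and for 1 without the 2 farthest tumours, within either mouse and with centring on mouse and segment. For likeness, no share over all genes was computed. The cause of these changes was not tested. With 2 mice, unequal *Rn18s* shares and tumours of 1 animal as replicates, the p-values measure the spread between tumours of these animals.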

Other observations

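Genes of fatty acid oxidation were followed beside those of uptake. Between clones of a tumour 11 of 12 had positive differences (median 0.14) and none passed, where 1.14% of all genes passed. Against minor clones, where 3.7% of all genes passed, 4 of 12 were higher in undivided tumours, including *Ehhadh*, a peroxisomal enzyme (0.74, adjusted p = 0.0142). Of 10 genes of retinoid handling, none passed between clones (8 positive, median 0.42), the smallest p belonging to *Isx*, an intestinal repressor of carotenoid uptake (0.45, adjusted p = 0.0577), and *Lrat*, which esterifies retinol bound to *Rbp2* (0.86, adjusted p = 0.0621). *Isx* was higher in undivided tumours than in minor clones (0.46, adjusted p = 0.0489). Of 4 ileal bile acid genes tested none passed between clones (median -0.07).

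Markers of other epithelial cells were measured in the same fits. Between clones, 1 of 6 goblet markers was higher in major clones, *Clca1* (0.70, adjusted p = 0.0465). None of 6 Paneth markers passed (5 positive, median 0.48), nor of 8 stem cell markers (4 positive, median -0.03), 4 tuft markers (2 positive, median 0.06), 5 endothelial markers (4 positive, median 0.42) or 4 hepatocyte markers (4 positive, median 0.68). The hepatocyte markers summed to 71.4 to 3110 normalised counts in minor and 128 to 2735 in major clones.

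Genes with the most negative correlation to the mean of the 10 genes, chosen after their values were seen, were *Xrn2* (r = -0.91), *Hsp90ab1* (r = -0.90), *Cdc23*, *Brd8* and the Wnt target *Myc* (r = -0.89) over 23 undivided tumours. In divided tumours r was -0.815 for *Xrn2*, -0.744 for *Hsp90ab1*, -0.804 for *Cdc23*, -0.47 for *Brd8* and -0.85 for *Myc*.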
